A study of Mus musculus with 6 samples.

Results

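The 35 genes described here encode lysosomal hydrolases, their activators, lysosomal membrane proteins and the transcription factors TFEB and TFE3. They were chosen by symbol and not by their values, though earlier results of these data were known. Each was found on 1 of the 25509 gene rows of the count table. RNA had been sequenced from thioglycollate-elicited peritoneal macrophages of C57BL/6 mice, in 3 wild-type (WT) libraries and 3 libraries of Tg-ACE mice, which overexpress angiotensin-converting enzyme (ACE), an enzyme that cuts angiotensin I to angiotensin II. Thioglycollate, an irritant injected into the peritoneal cavity, draws macrophages there; in both genotypes cells were taken on day 4, passed through a Percoll gradient and kept if adherent after 2 h. The experiment codes divide the libraries and each holds both genotypes: replicate 1 of WT and of Tg-ACE is coded Exp-156, and their replicates 2 and 3 are coded Exp-156b. What the codes mean is not stated. The sample labels name the second group JWT (Tg-ACE), while the design text of the series writes Tg-NKO; the sample labels were followed. The age of the mice and the promoter or cell type that drives the transgene are not stated in the sources here. Whether each replicate is a mouse of its own is not stated either, so p-values measure the spread between these libraries, which may be technical.

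Lysosomes are acidic, membrane-bound compartments in which macromolecules taken up by endocytosis, phagocytosis or autophagy are broken down. Soluble hydrolases are made in the endoplasmic reticulum, tagged with mannose 6-phosphate and carried to the lysosome by sorting receptors, while heavily glycosylated proteins such as LAMP1 and LAMP2 line its membrane. TFEB and TFE3 bind short E-box sequences with the core CACGTG in many lysosomal promoters and raise their transcription when they are released from control by the kinase complex mTORC1. Inherited loss of single hydrolases causes lysosomal storage diseases, and macrophages, which digest much of what they engulf, are among the cells in which undegraded material collects.

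Library totals ran from 24294258 to 28120394 expected counts, and no library was a copy of another. Ace itself, the check of the labels, stood at 16.7, 7.59 and 11.6 CPM (counts scaled to a common library size with trimmed-mean factors) in WT and 100.5, 25.6 and 31.8 CPM in Tg-ACE, so the groups did not overlap (log2 fold change 1.95 ± 0.23 (SE), edgeR's quasi-likelihood test with the experiment code as a term, unadjusted p = 4.3e-05, adjusted p = 0.136). The libraries separated first by experiment code: 74.6% of the variance lay on the first principal component, with Exp-156 at -63.7 and -55.7 on it and Exp-156b from 26.2 to 34.2. Sex-linked genes followed the code as well, with Xist at 0.409 and 0.527 CPM in Exp-156, then 327 to 454 CPM in Exp-156b, while Ddx3y stood at 47.9 and 51.5 CPM in the former and at no more than 0.106 CPM in the latter. Macrophage genes were abundant in every library, with Lyz2 at 14302 to 18009.6 CPM; the other cell types whose markers were counted are given with the comparison of the codes. In bulk RNA, fewer cells of a type and less RNA per cell cannot be told apart.

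The promoters of several members hold the letters that TFEB and TFE3 recognise, and the stretches are shown because these genes are followed below. RefSeq promoter windows of GRCm38.p6 were matched by symbol for 32 of the 35 members, in 37 windows. Each runs from 250 bases before a RefSeq start to 50 bases after it, and "start" means that RefSeq start wherever CACGTG is counted. The hexamer CACGTG, which reads the same on both strands, lay before the start of 9 of these 32 genes (28.1%), against 6.86% of all genes in the promoter table and 9.83% of the tested genes in it. Its longer form TCACGTGA, each match of which also holds a CACGTG, lay before the start of 3 members, Mcoln1, Ctsa and Gla (9.38%). The shares were 0.907% of all genes in the promoter table and 1.75% of the tested genes in it. A still longer form, with G before and C after those letters, was searched too. That form lay before the start of 0 of the 32 members, 0.27% of all genes and 0.611% of the tested genes. A match describes letters in a window and not a bound site. The matches are printed 5′ to 3′ on the gene's strand, with CACGTG in capitals and the flanking bases in lower case.
Lamp1 chr8:13159090-13159160 forward: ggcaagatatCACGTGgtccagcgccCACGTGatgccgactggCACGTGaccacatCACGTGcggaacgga
Mcoln1 chr8:3500438-3500463 forward: tcgcgcttgtCACGTGttcagttcag
Mcoln1 chr8:3500464-3500489 forward: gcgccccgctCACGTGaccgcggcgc
Ctsa chr2:164833751-164833772 forward: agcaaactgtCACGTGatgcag
Glb1 chr9:114401020-114401045 forward: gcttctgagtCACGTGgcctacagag
Naglu chr11:101070011-101070036 forward: accttcaggtCACGTGgcccgaggtc
Sgsh chr11:119355524-119355549 reverse: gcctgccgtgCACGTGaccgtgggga
Gaa chr11:119267813-119267838 forward: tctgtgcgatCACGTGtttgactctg
Gla chrX:134601217-134601242 reverse: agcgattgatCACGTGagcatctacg
Gla chrX:134601184-134601209 reverse: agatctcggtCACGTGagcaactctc
Arsa chr15:89477425-89477450 reverse: aactcagtgtCACGTGttgtctgctc
Lamp1, the gene of a major lysosomal membrane glycoprotein, held 4 copies of the hexamer within 71 bases, between 61 and 15 bases before its start. Mcoln1, which encodes the lysosomal calcium channel TRPML1, and Gla, which encodes alpha-galactosidase A, held a pair each, and the other 6 members held 1 copy each. The stretches of Lamp1, Glb1 and Gaa lie outside exons annotated in GENCODE, and those of the other 6 overlap an annotated exon. GENCODE, from which the gene positions below are taken, starts some genes further upstream. By its bounds the matches of Naglu and Ctsa and the second match of Mcoln1 lie inside the gene, and that of Sgsh straddles the gene's start.

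All 35 genes were tested, and none was near the detection limit: the lowest value of any member in any library was 851 counts, and 27 members had a mean above 100 CPM. Together they took between 4.90% and 5.28% of the counts of a library, and between 2.32% and 2.58% without Psap. Psap encodes prosaposin, the precursor of the saposins that help hydrolases reach sphingolipids, and it had the highest mean CPM of all genes, at 24043 to 29382 CPM. Levels of different genes were compared per length of their merged exons, as TPM (counts per merged exon length, scaled to the same total in each library; mean ± SD, n = 6 libraries of both genotypes and both codes). Merged exons join all annotated transcripts of a gene and can be longer than the transcript that is made, which would lower its TPM. They measure 1257 bases for Cd68 but 5438 for Npc2, 7555 for Mcoln1 and 9261 for Tfe3, so the order holds for this scale only. On that scale Psap stood at 29246 ± 3013 TPM, the third highest of all genes. It was followed among the members by Cd68 at 5184 ± 269, Lamp1 at 3668 ± 142, Hexa at 2603 ± 173 and Grn at 2257 ± 155 TPM. Cd68 is a heavily glycosylated late endosomal and lysosomal protein of macrophages, Hexa the alpha subunit of beta-hexosaminidase and Grn progranulin, which is cut into granulins in the lysosome. Neighbours in the middle of the order overlapped: Ctsa, the protective protein cathepsin A, ranged from 1224 to 1454 TPM and Laptm5, a lysosomal membrane protein of blood cells, from 1215 to 1392 TPM, and Lipa, Npc2 and Gusb overlapped likewise.

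**Figure D1:**
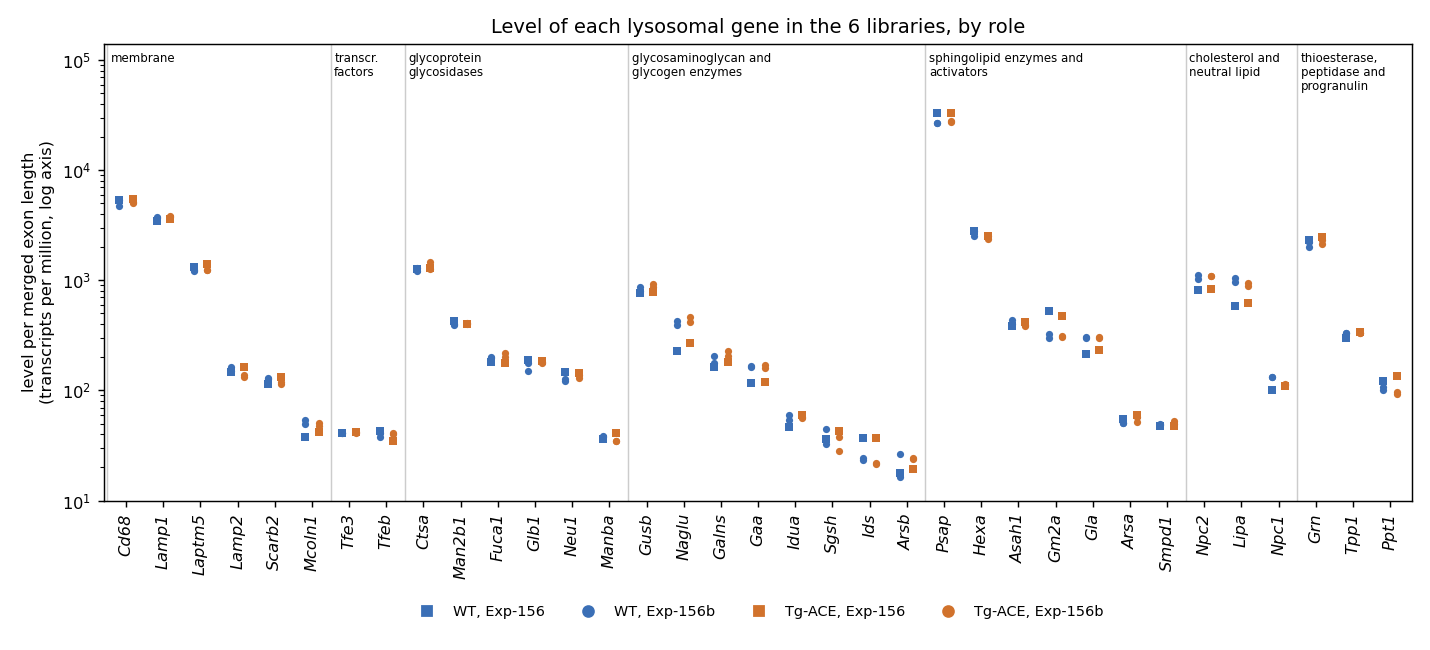
Level of each of the 35 genes per merged exon length (TPM, log axis) in the 6 libraries, grouped by role; colour gives the genotype and shape the experiment code. Psap lies above all others near 29246 TPM, Arsb and Ids lie lowest, and Naglu, Lipa, Gm2a and Ids show squares apart from circles in both colours.

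At the low end of the TPM scale stood Arsb, which removes sulfate from dermatan sulfate, at 21.3 ± 4.10 TPM, and Ids, which removes it from iduronate, at 27.6 ± 7.52 TPM. Manba, Sgsh, Tfeb, Tfe3, Mcoln1 and Smpd1 followed at 37.2, 37.0, 39.7, 41.2, 46.9 and 49.4 TPM. By CPM, Mcoln1 at a mean of 118 lay above Arsa at 66.2, whose merged exons are shorter. Within the glycosaminoglycan enzymes the mean level thus ran from Arsb to Gusb, beta-glucuronidase, at 838 ± 66.4 TPM. The coefficient of variation over the 6 libraries was under 10% for 20 members. Exons of 10 members share bases with a gene on the opposite strand (Lamp1, Ctsa, Idua, Arsb, Sgsh, Hexa, Arsa, Npc1, Ppt1 and Grn), and those of Glb1 with Tmppe on the same strand. The libraries were made with a stranded kit, but whether reads were counted by strand is not stated, so the levels of the 10 genes with an opposite-strand overlap carry that uncertainty; the overlap of Glb1 cannot be resolved by strand.

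The difference between the experiment codes was the larger axis for these genes. Of the 35, 9 were higher in Exp-156b and 3 lower by edgeR's quasi-likelihood test with genotype as a term (adjusted p under 0.05 over 12827 genes); the other 23 did not pass. Across all tested genes 42.9% passed, 20.0% higher and 22.9% lower, so the 12 of 35 that passed (34.3%) were not a larger share than the background. With upper-quartile scaling the split of all calls moved from 2559 higher and 2943 lower to 3332 higher and 2408 lower (26.0% and 18.8%), and that of the members to 14 higher and 3 lower. The members' median log2 difference was 0.079, with the quartiles at -0.054 and 0.27, against a median of -0.0050 over all tested genes and quartiles of -0.32 and 0.28. In all 12 the difference had the same sign within WT and within Tg-ACE, and both Exp-156 libraries lay outside the range of the 4 Exp-156b libraries. The 12 were selected by a test on these same libraries, so this describes them and is not a further check. The share among all genes that passed was not counted. Over all 35, 14 lay wholly higher and 4 wholly lower in Exp-156b, where 29.0% and 30.8% of all tested genes did. The code separates all 6 libraries, so the experiment, the sex markers and whatever else differs between the 2 sets cannot be told apart. Values below are listed with WT before Tg-ACE within each code.

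**Figure D2:**
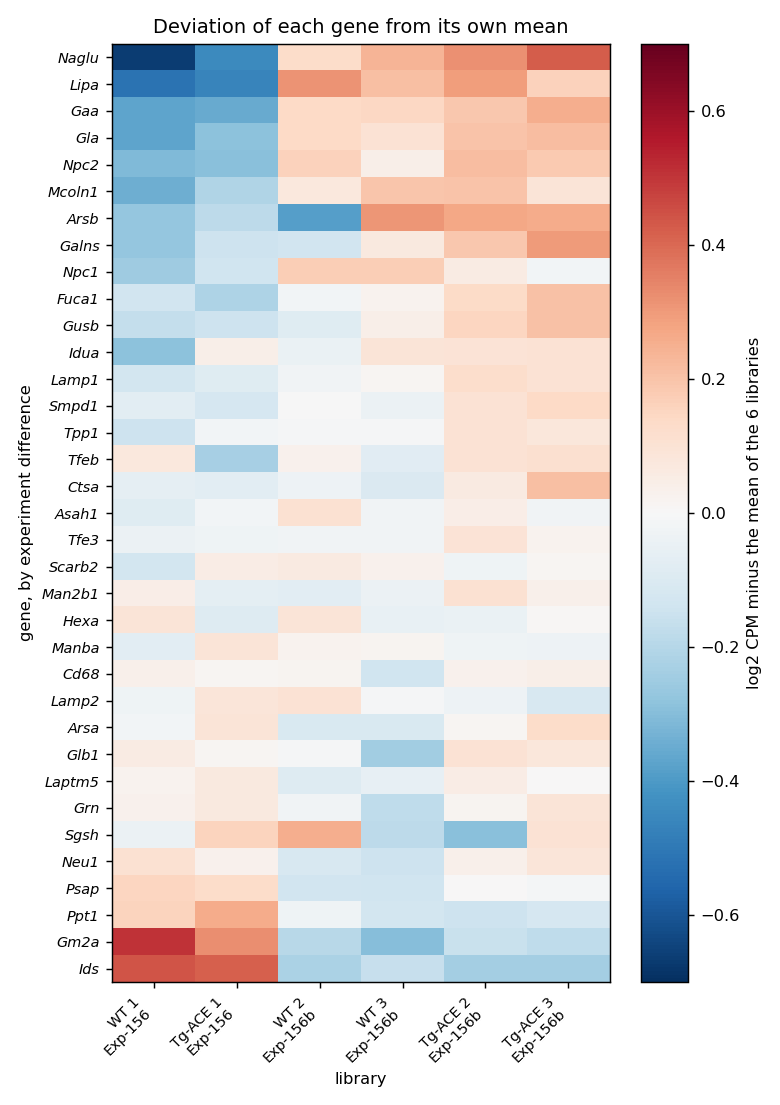
Deviation of each gene's log2 CPM from its mean over the 6 libraries (colour scale in log2 units), with genes ordered by the difference between the codes and the 2 Exp-156 libraries beside the 4 Exp-156b libraries. Naglu, Lipa and Gaa are below their mean in both Exp-156 libraries, Ids and Gm2a above it, and most other genes are pale throughout.

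All 3 genes of cholesterol and neutral lipid handling were higher in Exp-156b. Lipa (chr19:34492318-34527474, reverse strand, mm10) encodes lysosomal acid lipase, which frees cholesterol and fatty acids from engulfed lipoproteins, and it stood at 1295 and 1346 CPM under Exp-156 against 2299.7, 2138, 2267 and 2068 CPM under Exp-156b. The lowest Exp-156b library lay above both Exp-156 libraries in each genotype (log2 fold change 0.73 ± 0.083 (SE), adjusted p = 4.8e-04; edgeR). Npc2 (chr12:84754562-84773152, reverse strand), the small soluble protein that takes up the freed cholesterol, stood at 1438 and 1452 CPM under Exp-156 against 1989, 1833, 2067 and 2019 CPM under Exp-156b (log2 fold change 0.45 ± 0.078 (SE), adjusted p = 0.00305; edgeR). Npc1, the membrane protein to which NPC2 hands cholesterol for export, stood at 368 and 396 CPM under Exp-156 against 492, 492, 453 and 430.2 CPM under Exp-156b (log2 fold change 0.29 ± 0.082 (SE), adjusted p = 0.0255; edgeR). The difference of Npc1 was 0.42 within WT and 0.16 within Tg-ACE. Without WT replicate 1 the code difference rests on Tg-ACE alone, and it was 0.15 and no longer passed. Nor did it pass without Tg-ACE replicate 2 (0.30, adjusted p = 0.0562). The 3 genes together took 0.312% and 0.323% of the counts in Exp-156 and 0.445% to 0.481% in Exp-156b.

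Among the 8 glycosaminoglycan and glycogen enzymes, 3 were higher in Exp-156b and 1 lower. Naglu (chr11:101070012-101077672, forward strand), which removes N-acetylglucosamine from heparan sulfate, showed the widest gap of the 35 genes: it stood at 197 and 228 CPM under Exp-156 against 340.0, 368, 388 and 418 CPM under Exp-156b (log2 fold change 0.83 ± 0.074 (SE), adjusted p = 1.6e-04; edgeR). Gaa (chr11:119267887-119285454, forward strand), the acid alpha-glucosidase that digests glycogen, stood at 181 and 183 CPM under Exp-156 against 257, 258, 266 and 278 CPM under Exp-156b (log2 fold change 0.54 ± 0.065 (SE), adjusted p = 6.3e-04; edgeR). Both genes carry CACGTG in the windows printed above, whereas Lipa and Npc2 have no match before the start. Lamp1, Ctsa, Glb1, Sgsh and Arsa carry it too and did not pass with edgeR. Galns (chr8:122578242-122611463, reverse strand), a sulfatase of keratan sulfate and chondroitin 6-sulfate, stood at 140.1 and 153 CPM under Exp-156 against 154, 178, 193 and 208 CPM under Exp-156b, so that its gap to the nearest library was narrow (log2 fold change 0.31 ± 0.084 (SE), adjusted p = 0.0194; edgeR). It passed in 10 of 13 alternative analyses, and it missed the threshold without Tg-ACE replicate 1 (0.24, adjusted p = 0.168), without WT replicate 1 (0.38, adjusted p = 0.0544) and with the code alone (0.32, adjusted p = 0.0502). Ids (chrX:70343069-70365084, reverse strand), the iduronate sulfatase, went the other way and stood at 61.5 and 60.5 CPM under Exp-156 against 38.9, 40.4, 38.4 and 38.4 CPM under Exp-156b (log2 fold change -0.65 ± 0.062 (SE), adjusted p = 2.2e-04; edgeR). Gusb missed the threshold (log2 fold change 0.23, adjusted p = 0.0512) and passed in 6 of the 13 alternatives. Arsb ranged over 32.1 to 52.0 CPM and Idua over 63.1 to 82.7 CPM, with differences of 0.36 ± 0.17 and 0.18 ± 0.082 (SE) that did not pass; Arsb passed without WT replicate 2 (0.51, adjusted p = 0.00187) and Idua with upper-quartile scaling (adjusted p = 0.0436). Sgsh, at -0.077 ± 0.16, did not pass either.

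**Figure D3:**
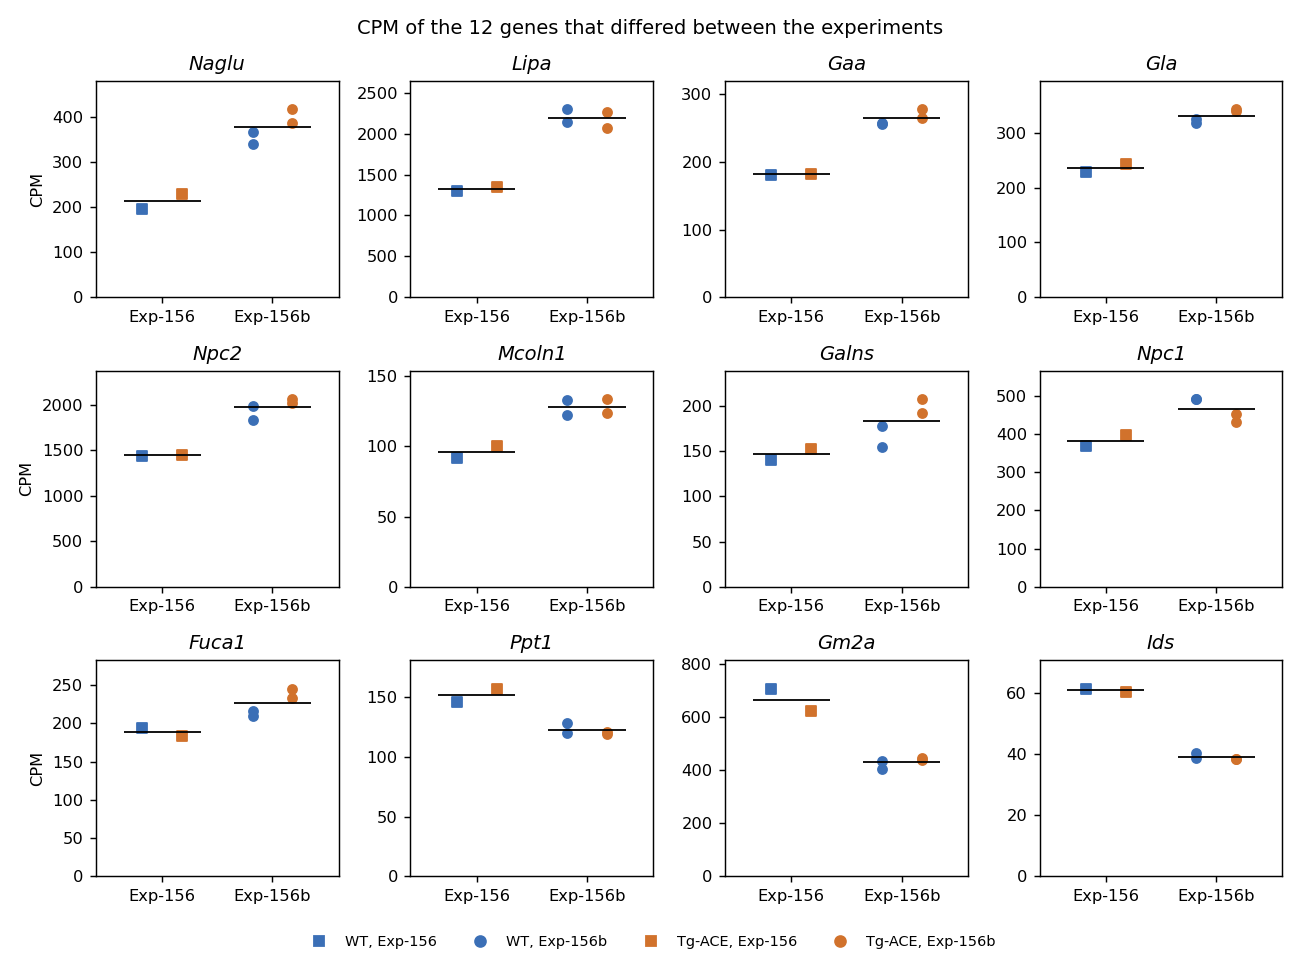
CPM in each library for the 12 genes that passed between the experiment codes, one panel a gene, with WT in blue and Tg-ACE in orange and a line at the mean of each code. In each panel both Exp-156 libraries lie outside the range of the 4 Exp-156b libraries, below it in 9 genes and above it in Ids, Gm2a and Ppt1.

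The sphingolipid genes split. Gla (chrX:134588149-134601125, reverse strand), which removes terminal galactose from globotriaosylceramide, was higher in Exp-156b, at 229 and 243 CPM under Exp-156 against 325, 318, 339.8 and 343 CPM under Exp-156b (log2 fold change 0.49 ± 0.064 (SE), adjusted p = 8.7e-04; edgeR). Gm2a (chr11:55098115-55113029, forward strand), the activator that lifts ganglioside GM2 out of membranes for beta-hexosaminidase, was lower, at 708 and 623 CPM under Exp-156 against 435, 404, 446 and 439.6 CPM under Exp-156b (log2 fold change -0.63 ± 0.081 (SE), adjusted p = 8.8e-04; edgeR). Its enzyme partner Hexa overlapped between the codes, at 1825 and 1615 CPM under Exp-156 against 1826, 1654, 1663 and 1727 CPM under Exp-156b (log2 fold change -0.001, adjusted p = 0.992). Psap, the other activator gene, stood at 29382 and 28931 CPM under Exp-156 against 24087, 24043, 26538 and 26189.9 CPM under Exp-156b. Both Exp-156 libraries were the highest for Psap, but the difference missed the threshold with edgeR (log2 fold change -0.21 ± 0.087 (SE), adjusted p = 0.0841) and passed with limma-voom (adjusted p = 0.0388) and DESeq2 (adjusted p = 0.0114). Arsa (arylsulfatase A), Asah1 (acid ceramidase) and Smpd1 (acid sphingomyelinase) had differences of -0.053, 0.079 and 0.14 and did not pass; with upper-quartile scaling Smpd1 did (adjusted p = 0.0376).

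One of the 6 membrane genes and 1 of the 6 glycoprotein-degrading genes passed, both higher. Mcoln1 (chr8:3500457-3515232, forward strand) stood at 91.8 and 100.4 CPM under Exp-156 against 123, 133, 134 and 124 CPM under Exp-156b (log2 fold change 0.42 ± 0.074 (SE), adjusted p = 0.00351; edgeR). Fuca1 (chr4:135920735-135940311, forward strand), the fucosidase, stood at 194 and 183 CPM under Exp-156 against 210.0, 216, 233 and 245 CPM under Exp-156b (log2 fold change 0.26 ± 0.079 (SE), adjusted p = 0.0328; edgeR). Its difference was 0.13 within WT and 0.38 within Tg-ACE. It passed in 9 of 13 alternatives and no longer passed without Tg-ACE replicate 1 (0.13, adjusted p = 0.293), Tg-ACE replicate 2 (adjusted p = 0.0665), Tg-ACE replicate 3 (adjusted p = 0.0600) or WT replicate 3 (adjusted p = 0.0523). Lamp1 stood at 2973 and 3066 CPM under Exp-156 against 3185, 3270.1, 3530.2 and 3485 CPM under Exp-156b; both Exp-156 libraries were its lowest, and the difference did not pass with edgeR (log2 fold change 0.16 ± 0.075 (SE), adjusted p = 0.129), though it did with DESeq2 (adjusted p = 0.0270) and with upper-quartile scaling (adjusted p = 0.0353). Lamp2 stood at 460.3 and 499 CPM under Exp-156 against 505, 468, 459 and 436 CPM under Exp-156b, with both sets overlapping (log2 fold change -0.042, adjusted p = 0.702). Cd68 ranged over 1954 to 2219 CPM, Laptm5 over 1502 to 1676 CPM and Ctsa over 1885 to 2341 CPM. Cd68, Laptm5 and Scarb2, the sorting receptor of beta-glucocerebrosidase, differed by -0.039, -0.071 and 0.054, and Ctsa, Man2b1, Manba, Neu1 and Glb1 by 0.10, 0.017, -0.018, -0.11 and -0.056. None of these 8 passed. In at least 1 of the 13 alternatives the sign turned for each of these 8 and for Lamp2 (with upper-quartile scaling for Lamp2, Cd68 and Laptm5), as it did for Sgsh, Hexa and Arsa.

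The last group held 1 called gene. Ppt1 (chr4:122836242-122859175, forward strand), the thioesterase that takes palmitate off proteins, was lower in Exp-156b, at 146 and 158 CPM under Exp-156 against 129, 120.2, 119 and 121 CPM under Exp-156b (log2 fold change -0.31 ± 0.069 (SE), adjusted p = 0.00873; edgeR); without Tg-ACE replicate 1 it was -0.24 (adjusted p = 0.0876). Tpp1, a tripeptidyl peptidase, stood at 506 and 552 CPM under Exp-156 against 557, 556, 599 and 592 CPM under Exp-156b and did not pass (log2 fold change 0.12, adjusted p = 0.164), except with upper-quartile scaling (adjusted p = 0.0367). Grn stood at 2639.6 and 2714 CPM under Exp-156 against 2542, 2291, 2619.8 and 2757 CPM under Exp-156b, with both sets overlapping (log2 fold change -0.072, adjusted p = 0.513; the sign turned with upper-quartile scaling).

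Neither transcription factor differed past the threshold in RNA level between the codes. Tfeb stood at 78.2 and 63.2 CPM under Exp-156 against 76.0, 70.4, 79.6 and 80.2 CPM under Exp-156b (log2 fold change 0.12 ± 0.10 (SE), adjusted p = 0.394; edgeR). Its 2 Exp-156 libraries went apart: Tg-ACE replicate 1 was the lowest of the 6 and WT replicate 1 was exceeded only by the 2 Exp-156b Tg-ACE libraries. The difference was -0.10 within WT and 0.34 within Tg-ACE; it passed without WT replicate 1 (0.33, adjusted p = 0.0383) and was -0.099 without Tg-ACE replicate 1. Tfe3 stood at 123 and 124 CPM under Exp-156 against 124, 124, 135 and 129 CPM under Exp-156b (log2 fold change 0.055 ± 0.063 (SE), adjusted p = 0.517; edgeR). Since these factors are controlled largely by phosphorylation and location in the cell, their RNA level is not a measure of their activity. Of the 9 members with CACGTG before the start, 4 were higher between the codes and none lower (0), with a median of 0.16. Of the 23 matched members without it, 3 were higher and 3 lower, with a median of 0.017. Of the 3 members without a promoter window, 2 were higher and none lower (0), with a median of 0.29. Among all tested genes 20.0% were higher and 22.9% lower, and the shares among those with CACGTG were not counted. The split by CACGTG was not tested.

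On the X chromosome lie 4 members, which sit beside the sex markers that follow the code. They did not move one way: Gla was higher, Ids lower, and Lamp2 and Tfe3 passed in neither direction. Of the 403 tested genes on the X chromosome, 16.9% were higher and 23.1% lower in Exp-156b, near the shares of all genes. All 4 X-linked genes listed as escaping silencing in female cells were higher in Exp-156b.

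Markers of other cells and of cell state moved with the code too. Of 6 tested monocyte and small peritoneal macrophage markers, 6 were lower in Exp-156b, and the list summed to 629.9 and 491 CPM under Exp-156 against 40.5 to 84.6 CPM under Exp-156b. Eosinophil markers were lower in 3 of 3 tested and summed to 259 and 118 CPM under Exp-156 against 11.5 to 22.1 CPM under Exp-156b. Mast cell and basophil markers were lower in 6 of 6 (96.1 and 62.3 CPM under Exp-156 against 14.2 to 29.0 CPM under Exp-156b), T and NK cell markers in 6 of 6 (29.0 and 24.5 CPM under Exp-156 against 6.33 to 7.84 CPM under Exp-156b), dendritic cell markers in 2 of 3 (61.8 and 47.8 CPM under Exp-156 against 5.34 to 9.74 CPM under Exp-156b), neutrophil markers in 1 of 3 (36.6 and 19.9 CPM under Exp-156 against 10.4 to 14.7 CPM under Exp-156b) and erythroid and platelet markers in 2 of 2 (69.2 and 100.5 CPM under Exp-156 against 13.9 to 34.4 CPM under Exp-156b). None of the 6 B cell markers passed in either direction by edgeR (0 at an unadjusted p under 0.05; 123 and 96.2 CPM under Exp-156 against 56.8 to 129 CPM under Exp-156b), while 5 of 9 mesothelial and fibroblast markers were higher and 1 lower (228 and 248 CPM under Exp-156 against 278 to 577 CPM under Exp-156b). Ly6g, of neutrophils, stayed under 3 counts in every library.

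Macrophage genes were not level either. Of 9 tested rows for 8 markers, 7 were lower in Exp-156b, among them Itgam (-1.78), Adgre1 (-1.22) and Csf1r (-0.42), while Lyz2 and Mertk, at -0.042 and -0.086, did not pass, and the summed level was 19752 and 19682 CPM under Exp-156 against 16001 to 19985 CPM under Exp-156b. Lyz2 makes up most of that sum, and without it the level was 3764 and 4008 CPM under Exp-156 against 1591 to 1976 CPM under Exp-156b. Of 7 markers of large resident peritoneal macrophages 5 were lower and 2 higher (807 and 749 CPM under Exp-156 against 901 to 1072 CPM under Exp-156b). Cd9 makes up most of that sum and goes against most of the list: without it the other 6 markers summed to 212 and 141 CPM under Exp-156 against 23.9 to 32.3 CPM under Exp-156b. Alox15 was the largest part of these Exp-156 sums, at 149 and 61.2 CPM, against at most 1.14 CPM under Exp-156b. Gata6 was the other marker that was higher, at 5.31 and 6.78 CPM under Exp-156 against 12.6 to 17.8 CPM under Exp-156b (log2 fold change 1.41). Immediate early genes, which respond to handling within minutes, were lower in 7 of 9 and higher in 1, with sums of 2051 and 1731 CPM under Exp-156 against 896 to 976 CPM under Exp-156b. Cytosolic ribosomal protein genes were higher in 6 of 16 and lower in none (0), with sums of 7991 and 7560.2 CPM under Exp-156 against 8699 to 9699 CPM under Exp-156b. The part of cell makeup, cell state or sex in the differences of the lysosomal genes was not tested.

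The comparison the study was set up for, Tg-ACE against WT, gave no call among the 35 genes. With the experiment code as a term, edgeR's quasi-likelihood test passed 0 of 35, as did DESeq2 (0) and limma-voom (0), and 3 members had an unadjusted p under 0.05. Of all tested genes 0.0156% passed by edgeR, 0.288% by DESeq2 and 0.0156% by limma-voom, and 6.48% had an unadjusted p under 0.05 by edgeR. A fit on genotype alone, which the design text implies, called 0 genes (0.0%) and left 0 members at an unadjusted p under 0.05, against 126 genes, or 0.982% of those tested. More members were above 0 than below it, 26 against 9, where 48.3% of all tested genes were above 0, and their median log2 fold change was 0.069, against -0.0051 over all genes. Their range was -0.085 to 0.22. Within Exp-156 alone 23 were above 0 (median 0.040) and within Exp-156b alone 25 (median 0.097), but the sign was the same within both codes for 17 of 35, 15 above 0 and 2 below. The share of all tested genes with the same sign within both codes was not counted, and Exp-156 holds 1 library per genotype.

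The 3 genes with an unadjusted p under 0.05 were all higher in Tg-ACE; 2.64% of all tested genes were. Naglu stood at 197, 340.0 and 368 CPM in WT and 228, 388 and 418 CPM in Tg-ACE, and the Tg-ACE value was above the WT value within each code but the groups overlapped across codes (0.20 ± 0.067 (SE), edgeR, unadjusted p = 0.0199, adjusted p = 0.761). Galns stood at 140.1, 154 and 178 CPM in WT and 153, 193 and 208 CPM in Tg-ACE, again overlapping (0.22 ± 0.078 (SE), edgeR, unadjusted p = 0.0225, adjusted p = 0.761). Arsa stood at 65.0, 61.4 and 61.4 CPM in WT and 70.3, 66.7 and 72.1 CPM in Tg-ACE (0.15 ± 0.063 (SE), edgeR, unadjusted p = 0.0409, adjusted p = 0.761). It was the only one of the 35 whose groups did not overlap, where 4.87% of all tested genes did not overlap and 2.35% lay wholly higher, and p = 0.1 by the two-sided exact permutation test is the lowest that 3 against 3 libraries allow. Next in order came Idua, alpha-iduronidase, at 0.16 ± 0.077 (SE), and Gusb at 0.14 ± 0.076 (SE), with unadjusted p of 0.0729 and 0.108 (edgeR). Both moved with single libraries: Idua was 0.076 without either Exp-156 library (0.33 within Exp-156, 0.078 within Exp-156b), and Gusb was 0.087 without WT replicate 2. Below 0, the 5 members with the smallest p were Hexa (-0.085), Npc1 (-0.068), Ids (-0.039), Lamp2 (-0.042) and Tfeb (-0.018), none of them with an unadjusted p under 0.303. Lipa and Gm2a, which differed widely between the codes, stood at -0.0044 and -0.010 between the genotypes.

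**Figure D4:**
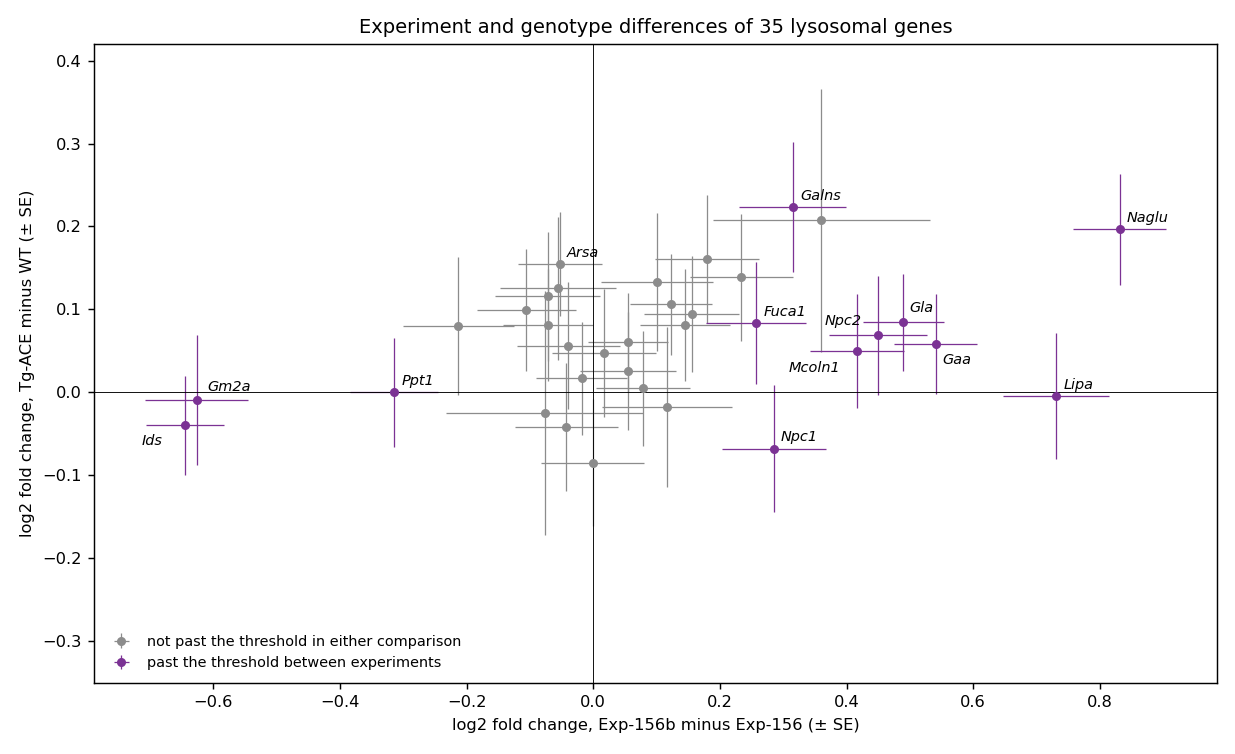
Log2 fold change between experiment codes (horizontal) against that between genotypes (vertical) for the 35 genes, each with its standard error; both come from 1 fit of the same 6 libraries. Purple marks the 12 genes that passed between codes; the horizontal spread runs from -0.65 to 0.83 and the vertical one from -0.085 to 0.22.

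No member's genotype difference was shown to depend on the code. The interaction test of edgeR passed 0 of 35 members, as did DESeq2 (0) and limma-voom (0), with 1 member at an unadjusted p under 0.05; of all tested genes 0.0% passed by edgeR, 0.101% by DESeq2 and 0.0% by limma-voom, and by edgeR 7.65% had an unadjusted p under 0.05. Exp-156 holds 1 library per genotype, so the spread behind this test comes from Exp-156b alone. Tfeb had the smallest p: Tg-ACE minus WT gave -0.31 within Exp-156 and 0.13 within Exp-156b (difference 0.43 ± 0.12 (SE), unadjusted p = 0.0122, adjusted p = 0.646; edgeR). Neu1, the lysosomal sialidase, gave -0.078 within Exp-156 and 0.19 within Exp-156b (difference 0.27 ± 0.11 (SE), unadjusted p = 0.0578, adjusted p = 0.66; edgeR). For Npc1 the values were 0.11 within Exp-156 and -0.16 within Exp-156b (difference -0.26 ± 0.12 (SE), unadjusted p = 0.077, adjusted p = 0.668; edgeR).

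Further genes of the lysosomal pathway, 120 tested genes in 7 lists, were set beside the 35 in the same fit; the single values given for them are log2 fold changes. Between the codes 42 of the 120 were higher in Exp-156b and 15 lower, where 20.0% and 22.9% of all tested genes were (26.0% and 18.8% with upper-quartile scaling), with a median of 0.12. A list of 22 other hydrolases and proteins that modify or accompany them, among these the phosphotransferase subunits Gnptab and Gnptg and the sulfatase-modifying factor Sumf1, had 9 higher and 2 lower (median 0.18). Creg1, a secreted glycoprotein that also resides in lysosomes, stood at 508 and 492 CPM under Exp-156 against 1006, 1049, 1119 and 1039 CPM under Exp-156b (1.07), Plbd2 was higher by 0.60, and Hyal1 (a hyaluronidase) and Pla2g15 (a lysosomal phospholipase) were lower at -1.06 and -0.49. Of 21 other membrane proteins, 7 were higher and 3 lower (median 0.055), with the tetraspanin Cd63 at 772 and 768 CPM under Exp-156 against 1222, 1356, 1392 and 1444 CPM under Exp-156b (0.81), the chloride-proton exchanger Clcn7 at 0.54 and Mfsd12 at 0.48, and with the channel Tpcn1 at -0.73, the arginine sensor Slc38a9 at -0.50 and Cd164 at -0.33. The proton pump that acidifies the lumen had 10 of 18 genes higher and 1 lower, with the highest median of the 7 lists (0.33). Atp6v1a, its catalytic subunit, stood at 642 and 684 CPM under Exp-156 against 979.6, 948, 1017 and 929 CPM under Exp-156b (0.55), Atp6v1h and Atp6v1g1 were both at 0.49, and Atp6v0a1 was at -0.42.

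**Figure D5:**
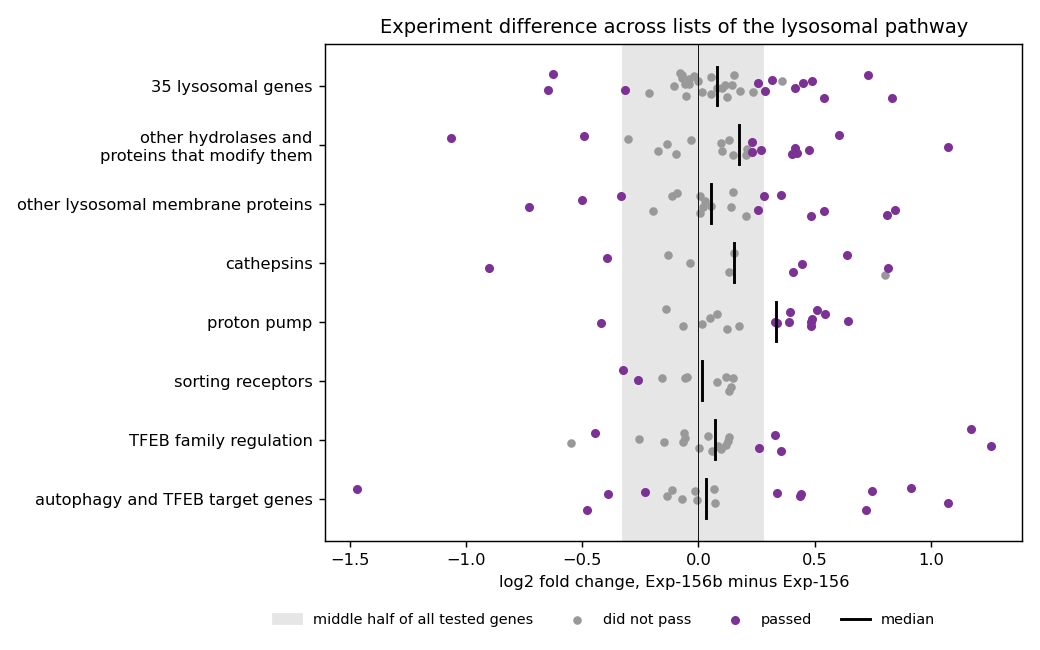
Log2 fold change between experiment codes for the 35 genes and for each gene of the 7 further lists, with purple points for genes that passed, a bar at each list's median and a grey band between the quartiles of all tested genes. The proton pump's median of 0.33 lies to the right of the band, and the medians of the 35 genes and of the other 6 lists lie inside it.

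Of 11 lysosomal proteases, the cathepsins and legumain (Lgmn), 4 were higher and 2 lower (median 0.16). Ctsd stood at 16124 and 16307 CPM under Exp-156 against 23196, 24858, 26468 and 26598 CPM under Exp-156b (0.64), with Ctsz at 0.41 and Ctsf at 0.81, while Ctsc stood at 231 and 277 CPM under Exp-156 against 166, 124, 124 and 132 CPM under Exp-156b (-0.90) and Ctsl was at -0.39. Of 20 genes that regulate the TFEB family, 5 were higher and 1 lower (median 0.072). Rragd, a Rag GTPase that holds mTORC1 and TFEB at the lysosome, stood at 20.3 and 21.7 CPM under Exp-156 against 47.7, 56.5, 52.8 and 44.0 CPM under Exp-156b (1.26), and Fnip2, a partner of folliculin, at 309 and 338 CPM under Exp-156 against 781, 762, 695 and 688 CPM under Exp-156b (1.17). Folliculin itself, Flcn, was lower (-0.45) and Tsc1, a brake on mTORC1, higher (0.36). Between the genotypes 0 of the 120 genes passed by edgeR and by limma-voom, 10 had an unadjusted p under 0.05, and DESeq2 called 2 (Hyal1 lower and Lgmn higher in Tg-ACE).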

How the data were processed

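The values the authors deposited are expected counts from RSEM, 1 per gene and library, not normalized. Poly-A RNA had been made into stranded libraries and sequenced as single 75-base reads, per the labels' protocols; RSEM 1.2.25, STAR 2.5.0 and both GRCh38 and mm10 appear, without their roles, per the submitters' processing notes. Between 11.0% and 11.4% of a library's values were not whole, and all were rounded. Reads of near-identical genes are divided between them in such counts. The 92 spike-in rows held 1 count and were left out. The mean chi-square per gene between any 2 libraries was at least 12.8, so each counted as 1 sample.

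A model with experiment code and genotype was fitted in edgeR 4.0.16 (R 4.3.3) by quasi-likelihood, with TMM factors and the filterByExpr filter by genotype, which kept 12827 genes; p-values were adjusted by Benjamini-Hochberg over all of them at 0.05. The filter, set by groups of 3, drops genes found only in the 2 Exp-156 libraries. Standard errors are the log2 fold change over the square root of F, CPM uses TMM-scaled library sizes, and log2 CPM a prior count of 2. A total of 3 counts corresponds to 0.107 to 0.123 CPM, for counting error only. Same-numbered libraries of the genotypes deviated together (correlations of 0.856, 0.483 and 0.637 over genes), as crossed pairs of replicates 2 and 3 did (0.539 and 0.615); with the code removed these fell to -0.178, -0.101, -0.143 and -0.0939. The pairing comes from the data and goes with the code. Positions are from GENCODE vM21 on GRCm38 (mm10), matched by gene identifier without its version. Alternatives were DESeq2 1.42.0, limma-voom 3.58.1, other size factors and filters (none, or 5 CPM in 3 libraries), genotype or code alone, the replicate block, Exp-156b alone and each library left out. Exp-156 was not fitted alone, and differences given within a code or a genotype are of mean log2 CPM, without a test. The calculations were tested on simulated data.

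The members, gene lists and rules were chosen with earlier results of these data known. All members are accounted for. Named for the code difference are up to 12 called members per direction by p, with Lamp1, Lamp2, Tfeb, Tfe3, Mcoln1, Npc1, Npc2, Lipa, Grn, Psap, Cd68, Laptm5, Ctsa and the X-linked members; for the genotype the 5 with the smallest p per direction; for the interaction the 3 with the smallest p; and from each further list up to 3 called genes per direction. Values of other members were chosen for the account after they were seen. Some genes that this rule would name are not reported here.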

Additional observations from a re-analysis of the deposited data

How the results depend on the processing

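Without WT replicate 1 or Tg-ACE replicate 1 the Exp-156 arm has 1 library, which is assumed to vary like the others. That library then has no say in the genotype difference, so both fits nearly repeat Exp-156b alone and are not separate checks. For the code difference each of the 2 fits draws on the genotype that keeps both codes, and so nearly repeats the difference within that genotype. The replicate block called 0 members and 2 genes lower between the genotypes and changed no member's call. No analysis of the 15 with a test called a member between the genotypes. Over all genes, 0 were called higher between the genotypes and 2 lower; no filter gave 2 and 7, DESeq2 19 and 18, and genotype alone 0 lower, while leaving out each replicate gave 0 to 1 higher and 2 lower. Between the codes, leaving out each replicate gave 1442 to 2382 genes higher and 1961 to 2889 lower, and 7 to 11 members higher and 2 to 3 lower; the fewest genes were called without either Exp-156 library. Upper-quartile factors called 14 members higher. DESeq2 called 11 interactions higher and 2 lower, none of them a member.

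Of the 12 members called between the codes, 8 kept the call in all 13 alternatives (Naglu, Lipa, Gaa, Gla, Npc2, Mcoln1, Ids and Gm2a), and 4 lost it when single libraries were left out or, for Galns, with the code alone (adjusted p = 0.0502). Another 8 were called in some alternative. Small differences changed sign; those of the genes named for these comparisons are given. Between the codes, upper-quartile factors gave 0.035 for Lamp2, 0.0054 for Grn, 0.038 for Cd68 and 0.0063 for Laptm5. With each library left out in turn the values ran from -0.16 to 0.076 for Lamp2, -0.099 to 0.33 for Tfeb, -0.0089 to 0.21 for Ctsa and -0.10 to 0.018 for Cd68. Within WT, Lamp2 was 0.079, Tfeb -0.096 and Ctsa -0.0056, and within Tg-ACE Cd68 was 0.020. Between the genotypes, leaving out libraries gave -0.12 to 0.013 for Lamp2 and -0.092 to 0.13 for Tfeb; Tfeb was 0.0034 with upper-quartile factors and 0.13 in Exp-156b alone. The cause of these changes was not tested.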

Other observations

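Autophagy genes and other reported TFEB targets changed in both directions between the experiment codes: of 18 tested, 7 were higher in Exp-156b and 4 lower by edgeR, with a median log2 difference of 0.031. Gpnmb, a glycoprotein of lysosomes and melanosomes that is abundant in lipid-laden macrophages, stood at 16867 and 17626 CPM under Exp-156 against 25165, 30923, 30012 and 29908 CPM under Exp-156b (log2 fold change 0.75 ± 0.11 (SE)). Sqstm1, the autophagy receptor p62, stood at 314 and 309 CPM under Exp-156 against 577, 565, 639 and 571 CPM under Exp-156b (0.91 ± 0.079), and Gabarapl1, an autophagosome membrane protein, was higher by a log2 difference of 0.72. Uvrag, Ulk1 and Atg9b, which act in forming and maturing autophagosomes, were lower, at -0.48, -0.39 and -1.47; Atg9b was scarce, at no more than 3.72 CPM in any library. A list of 10 genes of hydrolase sorting held receptors, adaptors and Vps26a, Vps29 and Vps35, which serve the return of the receptors. None was higher (0 called) and 2 were lower, Sorl1 at -0.33 and Gga1 at -0.26, with a median of 0.016. The list summed to 1814 and 1896 CPM under Exp-156 against 1868 to 1939.9 CPM under Exp-156b, so the 2 sets overlapped.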
